A study of Mus musculus with 6 samples.

Results

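The 9 genes described here are Hoxa5, Hoxa7, Hoxa9, Hoxa10, Hoxb3, Hoxb4, Meis1, Meis2 and Pbx3, chosen by name from the 53458 genes quantified by RNA-seq in AML blasts of mice that carry a Cebpa mutation with or without Tet2. Each value is the sum over all transcripts annotated to the gene symbol, and 7 of the 9 genes had enough reads to be among the 22170 genes tested. The comparison is between 3 Cebpa-/p30 Tet2+/+ mice (mice 19, 23 and 24) and 3 Cebpa-/p30 Tet2-/- mice (mice 5, 7 and 8), with 1 library per mouse, and the labels give the strain as C57BL/6. In both groups the blasts carry 1 deleted Cebpa allele and 1 allele that makes only the p30 form of the transcription factor CEBPA, so the longer p42 form is missing from the controls as well. According to the methods of the study, the blasts arose in lethally irradiated recipients from transplanted donor bone marrow with conditional alleles, recombined by the interferon-inducible Mx1-Cre after Poly(I)-Poly(C) injection, and cells of donor origin without T cell, B cell and erythroid surface markers were sorted from the marrow of moribund mice. Donors were C57BL/6J mice and recipients were congenic C57BL/6J.SJL females that were 10 to 12 weeks of age when transplanted. The age of each mouse at sampling and a batch are not given in the sources used here.

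HOX genes encode homeodomain transcription factors that lie in 4 clusters and are switched on in order along each cluster. In blood, the 3′ and middle genes of the HOXA and HOXB clusters are active in stem and early progenitor cells and are shut down as cells mature along the myeloid lineage. MEIS and PBX proteins are homeodomain factors of the TALE class (named for a loop of 3 extra amino acids in the homeodomain) that bind DNA together with HOX proteins, and the trio of HOXA9, MEIS1 and PBX3 is best known from leukaemias with MLL rearrangements or NPM1 mutations, whereas leukaemias with CEBPA mutations in both alleles belong to the types with low HOX expression. TET2 oxidises methylated cytosine, mostly in CpG dinucleotides, as a step in removing methylation.

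The libraries held between 13036643 and 32855343 estimated reads, the largest of them from mouse 5. The blasts carried myeloid identity genes at high level, such as Mpo at 850 to 1496 TPM and Ptprc at 107 to 174 TPM (TPM is a level scaled by transcript length and to the same total in each library). Of 9 stem and progenitor markers, 8 had a mean under 1 TPM and only Cd34 was well expressed. Whole-gene Tet2 did not pass the test (log2 fold change 0.19, SE 0.19, adjusted p = 0.842 by edgeR's quasi-likelihood test), and a sum over the gene does not check the deletion of an exon. Across the table, edgeR called 10 genes, 0.0451% of those tested, each lower in Tet2-/- blasts (0% higher). The separate mice of a group are treated as biological replicates, although the sources used here do not say whether any of them shared a bone marrow donor. With 3 against 3, an exact permutation test of one gene cannot give a p below 0.1.

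All 9 genes were low in both genotypes, and the highest mean over the 6 mice was 0.808 TPM for Pbx3. Ordered by mean level, Hoxb4 (0.356 TPM) came after Pbx3, then Hoxb3 (0.0998 TPM), Meis1 (0.0684 TPM), Hoxa9 (0.0594 TPM), Hoxa10 (0.0300 TPM), Hoxa7 (0.0260 TPM), Meis2 (0.0124 TPM) and Hoxa5 (0.00299 TPM). Neighbours in this order did not differ beyond the spread over mice, as the SD within a genotype reached 0.764 TPM for Pbx3, 0.668 TPM for Hoxb4 and 0.155 TPM for Hoxb3. Among 21896 protein-coding genes, 52.1% had a mean under 1 TPM, so Pbx3 stood above 51.0% of them, Hoxb4 above 46.9%, Hoxa9 above 37.0% and Hoxa5 above 21.8%. The 6 HOX genes together summed to 0.0612, 0.162 and 0.280 TPM in Tet2+/+ mice 19, 23 and 24, and to 1.96, 0.131 and 0.849 TPM in Tet2-/- mice 5, 7 and 8. Mice 5 and 8 lay above the other 4 mice, while mouse 7 lay within the Tet2+/+ range.

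**Figure D1:**
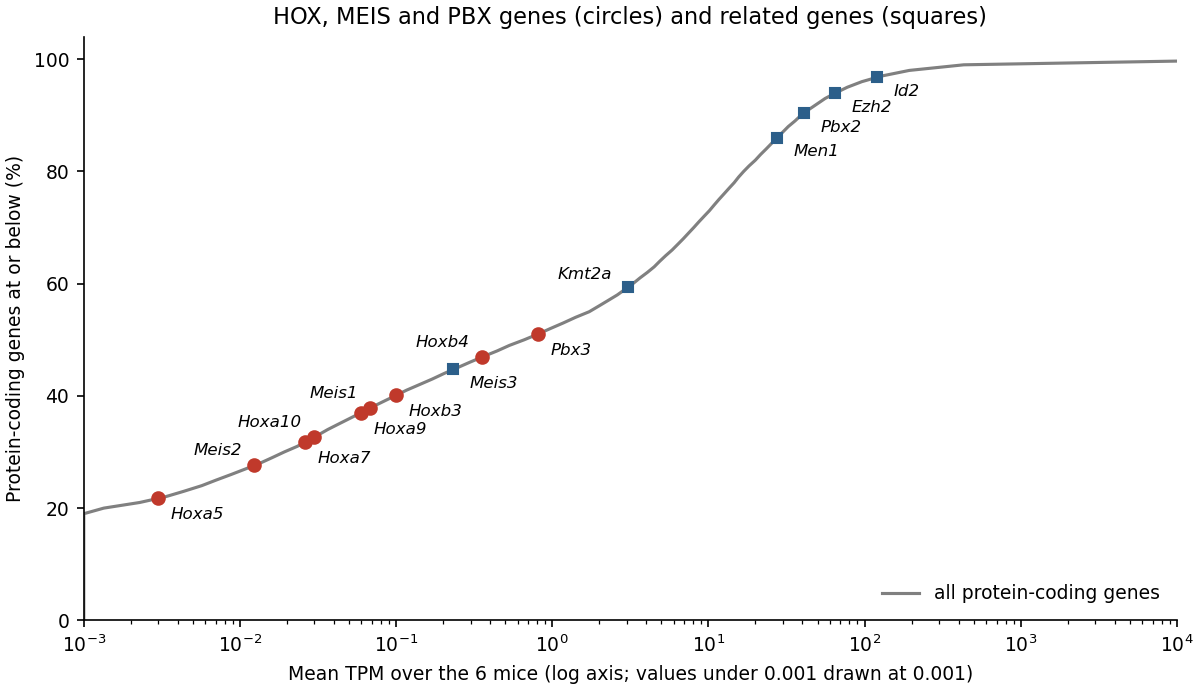
Mean TPM over the 6 mice (log axis) against the percentage of protein-coding genes at or below that level (grey line), with the 9 HOX, MEIS and PBX genes as circles and 6 related genes as squares. The circles lie between 0.00299 TPM (Hoxa5) and 0.808 TPM (Pbx3), below the squares for Kmt2a, Men1, Pbx2, Ezh2 and Id2 and on both sides of Meis3.

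The question asked of these genes is whether loss of Tet2 went with a change in their level. With edgeR's quasi-likelihood test and Benjamini-Hochberg adjustment over 22170 genes, 0 of the 7 tested genes passed an adjusted p of 0.05. At an unadjusted p under 0.05, 2 of the 7 were higher (Hoxb3 and Hoxb4) against a background of 3% of genes tested, and 0 were lower against a background of 5.12%. DESeq2 on the same counts called 1 of them higher (Hoxb4), where it called 0.266% of genes higher and 1.47% lower. Groups that did not overlap were seen for 1 of the 7, again Hoxb4, against 6.41% of tested genes with non-overlapping higher values. The median log2 fold change of the 7 was -0.69 beside 0.0016 for genes tested, and 5 were negative and 2 positive. A gene enters the test when its normalised counts sum to at least 10, and Hoxb3 and Hoxb4 passed this only through their Tet2-/- libraries.

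**Figure D2:**
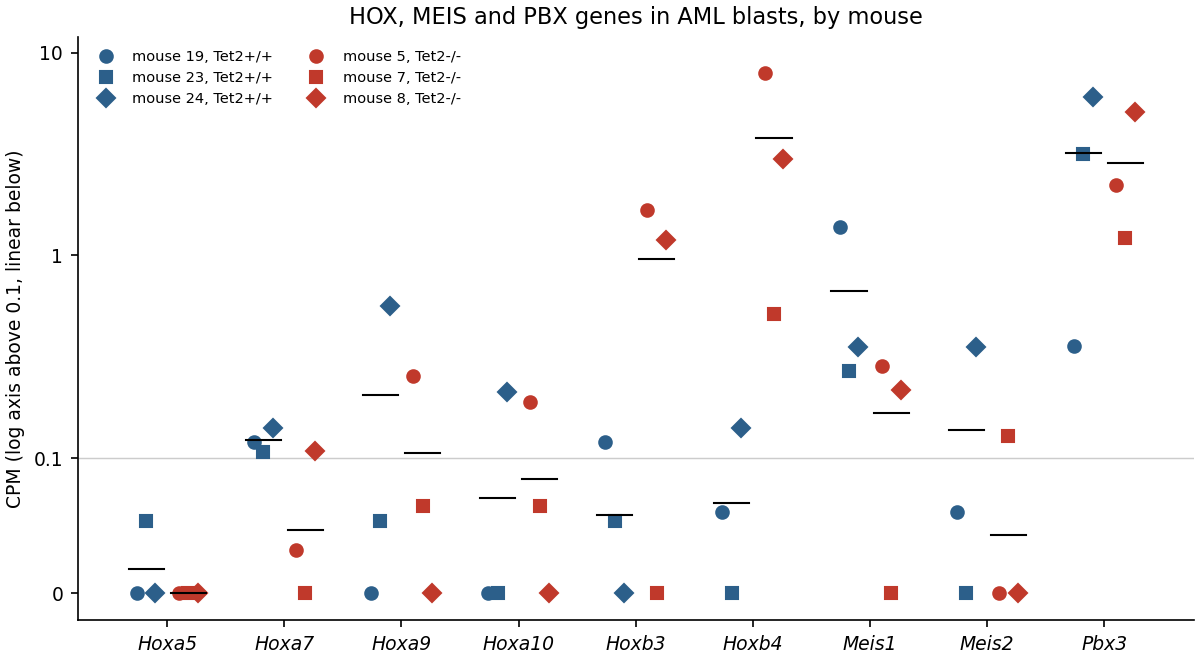
Counts scaled to library size (CPM, normalised for library size by TMM; log axis above 0.1 and linear below) of each gene in each of the 3 Tet2+/+ mice (blue) and 3 Tet2-/- mice (red), with a black line at each group mean. Hoxb4 is the gene whose red symbols, at 0.514 to 7.91 CPM, lie above its blue symbols, at 0 to 0.141 CPM, and the other 8 genes overlap.

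Hoxb4, a HOX factor known for expanding blood stem cells when supplied from outside, had 1, 0 and 2 reads in Tet2+/+ mice 19, 23 and 24. In Tet2-/- mice 5, 7 and 8 it had 250, 8 and 55 reads. Each Tet2-/- mouse was thus above each Tet2+/+ mouse, although mouse 7 was only just so. Its 8 reads have a 95% Poisson interval of 3.45 to 15.8 reads, which overlaps the 0.242 to 7.22 reads around the 2 reads of mouse 24 (exact intervals, which cover counting error only). Normalised to library size, the level was 3.80 ± 3.76 CPM (SD, n = 3) in Tet2-/- and 0.0669 ± 0.0707 CPM (SD, n = 3) in Tet2+/+ blasts. Pooled over mice, 313 against 3 reads gave a ratio of 78.9 per unit of normalised library size, with an exact 95% counting interval of 26.75 to 384.6, an interval that takes no account of the spread between mice. The fitted log2 fold change was 5.80 (SE 1.29), with an unadjusted p of 0.00267 and an adjusted p of 0.311 by edgeR. DESeq2 gave 5.90 with an adjusted p of 0.000683. The 2 tools thus placed the gene on different sides of the threshold, and the exact two-sided permutation test of its CPM gave p = 0.1, the smallest the design allows. Without mouse 5, the mouse with most reads, edgeR's log2 fold change was 4.64 (adjusted p = 0.501), and over its 11 edgeR alternatives adjusted p ranged from 0.105 to 0.723, while the stricter filterByExpr left the gene untested.

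Hoxb4 lies at chr11:96318267-96321638 on the plus strand (GRCm38, GENCODE M21), and its reads were assigned to its single 2-exon protein-coding transcript. No annotated gene overlaps its span. Its proximal promoter is shown because Hoxb4 was the member whose genotypes did not overlap, beside those of Hoxa9 and Meis1, the pair most often discussed in leukaemia, which were near 0 in both genotypes. The windows run from 250 bases before to 50 bases after the start of the RefSeq gene (GRCm38.p6), at chr11:96318017-96318316 on the plus strand for Hoxb4, chr6:52227321-52227620 on the minus strand for Hoxa9 and chr11:19018920-19019219 on the minus strand for Meis1. Each is written 5′ to 3′ on the strand of the gene with every CpG in capitals.
Hoxb4: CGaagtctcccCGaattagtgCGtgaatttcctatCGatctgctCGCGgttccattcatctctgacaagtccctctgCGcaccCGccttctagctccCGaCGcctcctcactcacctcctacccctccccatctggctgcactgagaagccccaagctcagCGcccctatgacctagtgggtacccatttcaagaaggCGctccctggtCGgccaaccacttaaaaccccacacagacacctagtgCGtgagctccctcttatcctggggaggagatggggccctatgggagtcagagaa
Hoxa9: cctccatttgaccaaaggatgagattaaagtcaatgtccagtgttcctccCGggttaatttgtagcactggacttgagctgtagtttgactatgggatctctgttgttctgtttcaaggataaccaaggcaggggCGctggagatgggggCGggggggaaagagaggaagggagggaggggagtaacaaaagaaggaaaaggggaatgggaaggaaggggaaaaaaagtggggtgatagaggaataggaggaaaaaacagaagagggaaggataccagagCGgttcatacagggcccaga
Meis1: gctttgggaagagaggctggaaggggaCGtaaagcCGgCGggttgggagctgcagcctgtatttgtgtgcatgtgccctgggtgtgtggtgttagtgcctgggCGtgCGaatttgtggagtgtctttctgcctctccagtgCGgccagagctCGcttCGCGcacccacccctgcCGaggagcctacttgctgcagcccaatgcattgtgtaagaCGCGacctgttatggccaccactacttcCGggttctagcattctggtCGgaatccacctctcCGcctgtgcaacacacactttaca
The Hoxb4 window holds 14 CpG dinucleotides, that of Hoxa9 holds 4 and that of Meis1 holds 15. The median over 32544 promoter windows of the same length was 7, and 36.5% of them had at least as many as Hoxb4, 69.0% as many as Hoxa9 and 34.9% as many as Meis1. RefSeq windows were also found for Hoxa5 (29 CpG), Hoxa7 (9 CpG), Hoxa10 (21 and 12 CpG at its 2 starts) and Meis2 (13 CpG), which makes 7 of the 9 genes, and Hoxb3 and Pbx3 are named only. On either strand, CCAAT, the letters bound by NF-Y, was found in 4 of the 8 windows (Meis1, Meis2, Hoxa5 and 1 of the 2 of Hoxa10) and in 37.4% of promoter windows overall. The letters TTGCNNAA, a short form of the C/EBP motif that can overlap CCAAT, were found in 1 window, of Hoxa10, and in 10.8% overall. The letters CACGTG (an E-box, 7.17% overall), TGACAG (the MEIS core, 19.1% overall) and TGATNNAT (a PBX and HOX dimer, 8.79% overall) were in 0 of the 8. DNA methylation was not measured in the libraries used here, and absence of letters from a window says nothing about binding elsewhere.

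Hoxb3, the next gene of the cluster and likewise active in early progenitors, had 2, 1 and 0 reads in Tet2+/+ mice 19, 23 and 24. In Tet2-/- mice 5, 7 and 8 it had 53, 0 and 22 reads. The genotypes overlapped, because mouse 7 had none, while mice 5 and 8 stood above the other 4. The level was 0.957 ± 0.863 CPM (SD, n = 3) in Tet2-/- and 0.0577 ± 0.0599 CPM (SD, n = 3) in Tet2+/+ blasts. The fitted log2 fold change was 3.89 (SE 1.45), with an adjusted p of 0.593 by edgeR and 0.329 by DESeq2. The unadjusted p by edgeR was 0.0308, and 0.0751 with length-scaled counts (log2 fold change 2.90). It was 0.0506 to 0.0967 without mouse 19, 23, 24, 5 or 8, and 0.00153 without mouse 7. Most of the reads, 49.2 in mouse 5 and 21 in mouse 8, were assigned to the 4-exon transcript Hoxb3-202 (chr11:96323326-96347930, plus strand), whose start lies 1687 bases past the end of Hoxb4. The antisense gene Hoxb3os shares 2250 exonic bases with Hoxb3, which is 52.9% of its exonic length, and the library kit does not mark strand. Hoxb3os itself was given at most 1 read in any mouse, and the second antisense gene inside the span, Gm11536, which shares no exonic base, had 3 reads in mouse 5 and 1 in mouse 8.

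The other HOXB genes had few reads in every mouse. Hoxb1, Hoxb2, Hoxb5, Hoxb6, Hoxb7 and Hoxb9 had between 0 and 7 reads in each mouse, and Hoxb8 and Hoxb13 had none. Mouse 5, with 250 reads of Hoxb4 and 53 of Hoxb3, had 3 reads of Hoxb2 on the 3′ side and 0 reads of Hoxb5 on the 5′ side. The reads of the cluster in mice 5 and 8 were therefore those of a pair of neighbouring genes.

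**Figure D3:**
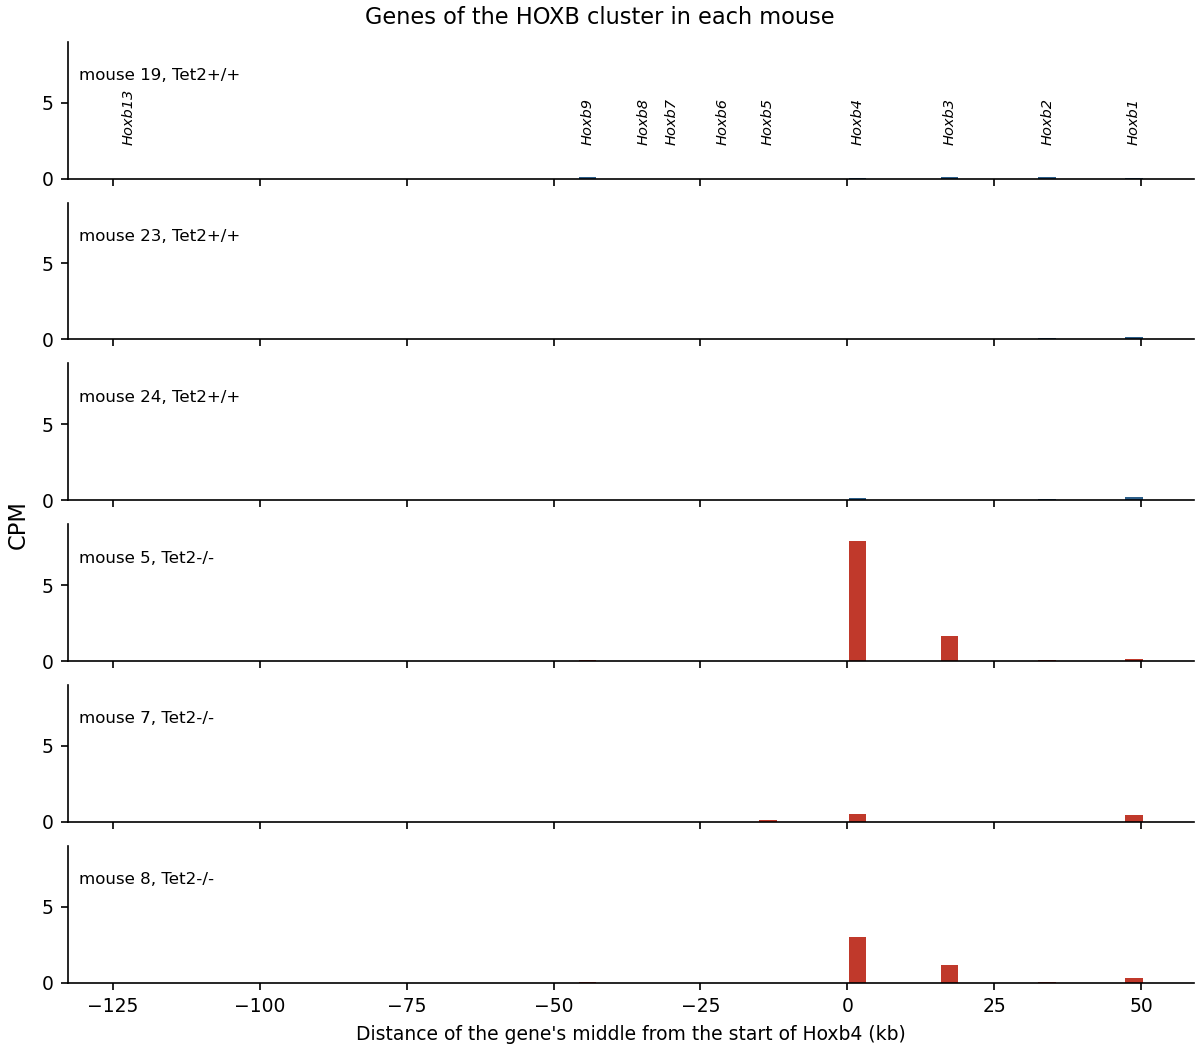
CPM of the 10 genes of the HOXB cluster in each mouse, drawn at the distance (kb) of each gene's middle from the start of Hoxb4, with Tet2+/+ mice in blue and Tet2-/- mice in red. Bars above 1 CPM are seen for Hoxb4 (7.91 and 2.98 CPM) and Hoxb3 (1.68 and 1.19 CPM) in mice 5 and 8, and for no other gene or mouse.

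Of 12 lists of cell type markers, the summed level of 1 was higher and of 3 lower in Tet2-/- mice without overlap, and the other 8 overlapped (blast and myeloid identity, primary granules, mature neutrophils, B cells, T and NK cells, erythroid cells, plasmacytoid dendritic cells, and stroma and endothelium). The 7 monocyte and macrophage markers summed to 1631 to 2398 TPM in Tet2+/+ and 2751 to 3841 TPM in Tet2-/- mice, without overlap and mostly through Ly6c2. The other markers of this list overlapped, and Csf1r, Ccr2 and Cx3cr1 were lowest in mouse 7 and highest in mouse 8, both Tet2-/-. The 9 stem and progenitor markers summed to 53.3 to 112 TPM in Tet2+/+ and 11.5 to 44.3 TPM in Tet2-/- mice, nearly all of it Cd34, with Fgd5 at 0 in mice 19 and 23. The 5 basophil and mast cell markers summed to 186 to 287 TPM in Tet2+/+ and 17.6 to 65.7 TPM in Tet2-/- mice, mostly Cpa3. Mcpt8 and Ms4a2 overlapped between genotypes, Prss34 was at 0 in 4 of the 6 mice and Fcer1a at 0 in 5. The 5 megakaryocyte markers summed to 14.8 to 24.1 TPM and 6.23 to 10.5 TPM, mostly Itga2b, while Pf4, Gp9 and Ppbp overlapped, with Gp1bb at 0 in 4 mice and Ppbp at 0 in 3. In bulk RNA, fewer cells of a type and less RNA per cell cannot be told apart. The part of these cell types in the Hoxb4 difference was not tested.

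The 4 HOXA genes were close to silent. Hoxa9, whose protein drives self-renewal of myeloid progenitors, had 0, 1 and 8 reads in Tet2+/+ mice 19, 23 and 24 and 8, 1 and 0 reads in Tet2-/- mice 5, 7 and 8. Both genotypes covered the same range, and 8 reads in the deeper library of mouse 5 are 0.253 CPM against 0.563 CPM in mouse 24. The log2 fold change was -0.69 (SE 1.44, adjusted p = 0.932 by edgeR), and with length-scaled counts its sign turned to 0.31. It was -2.45 without mouse 5. Hoxa10, the neighbour of Hoxa9 and a regulator of myeloid maturation, had 0, 0 and 3 reads against 6, 1 and 0 reads and was not tested. The mice with most Hoxa9 reads, 24 and 5, were also those with most Hoxa10 reads, 1 mouse from each genotype. Hoxa7 had 2 reads in each Tet2+/+ mouse and 1, 0 and 2 reads in mice 5, 7 and 8 (log2 fold change -1.28, SE 0.95, adjusted p = 0.779 by edgeR). Hoxa5 had 1 read in mouse 23 and none elsewhere. A count of 0 allows up to 3 reads (one-sided, counting error only), which is 0.0949 CPM in mouse 5 and 0.211 CPM in mouse 24, so a level under these in a library with no read cannot be told from 0. Within the HOXA cluster the microRNA gene Mir196b lies in Hoxa9 and had no reads, a small RNA that these libraries are not made for. The antisense gene Hoxaas3 shares 586 exonic bases with Hoxa7 and had 5 reads in mouse 24, 4 in mouse 5 and 1 in mouse 8. Hoxa5 lies inside the longer spans of Hoxa3, which had no read, and of Gm28308, which had 1 read in mouse 23, and shares no exonic base with either.

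Seen against each other, the HOXA genes of the set summed to 0.0308, 0.111 and 0.250 TPM in Tet2+/+ mice 19, 23 and 24 and to 0.254, 0.0360 and 0.0292 TPM in Tet2-/- mice 5, 7 and 8. The HOXB genes summed to 0.0304, 0.0511 and 0.0302 TPM in the former and to 1.71, 0.0952 and 0.820 TPM in the latter. Hoxb4 alone gave 1.42, 0.0952 and 0.583 TPM in Tet2-/- mice 5, 7 and 8, so comparisons with the HOXB sum are not separate from its result. By TPM, the HOXB sum was above the HOXA sum in each Tet2-/- mouse and below it in each Tet2+/+ mouse, but in mouse 19 the sums were nearly equal and rested on 2 HOXA reads against 3 HOXB reads. On the log2 scale with 0.1 TPM added to both sums, HOXA over HOXB was 0.64 ± 0.72 (SD, n = 3) in Tet2+/+ and -1.90 ± 1.22 (SD, n = 3) in Tet2-/- blasts, a difference of -2.54 without overlap (exact two-sided permutation p = 0.1, the smallest possible, and 0.4 after Benjamini-Hochberg adjustment over the 4 ratios computed). The size of this difference depended on the added value, and it was -4.00 with 0.01 TPM and -0.79 with 1 TPM. The other 3 ratios overlapped between genotypes, with differences of -0.35 for Meis1 over Hoxa9, -0.06 for Pbx3 over Hoxa9 and -0.29 for Meis1 over Meis2 (exact two-sided permutation p = 0.8, 1 and 0.6). Hoxa9, Meis1 and Meis2 lay near or under the added 0.1 TPM in most mice, and the sign of each of these 3 differences turned when 1 mouse was left out.

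Outside the set, the other 33 HOX genes were at the floor. Of these, 17 had no read in any mouse, 1 was tested (Hoxb1), and the highest mean was 0.0556 TPM. The 39 HOX genes together held 18, 16 and 25 reads in Tet2+/+ mice 19, 23 and 24, and 343, 20 and 90 reads in Tet2-/- mice 5, 7 and 8, of which Hoxb4 and Hoxb3 made up 303, 8 and 77. Of 14 non-coding genes of the clusters, 12 were in the annotation, 8 of them had no read, and the highest level was 0.583 TPM for Hotairm1, a transcript from the 3′ end of HOXA, in mouse 5 alone, on 1 read.

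Meis1, the cofactor that speeds leukaemia onset with HOXA9, had 23, 5 and 5 reads in Tet2+/+ mice 19, 23 and 24 and 9, 0 and 4 reads in Tet2-/- mice 5, 7 and 8. Mouse 19 was highest and mouse 7 lowest, and after normalisation the groups overlapped, with 0.268 to 1.38 CPM in Tet2+/+ and 0 to 0.285 CPM in Tet2-/- mice. The level was 0.665 ± 0.617 CPM (SD, n = 3) in Tet2+/+ and 0.167 ± 0.149 CPM (SD, n = 3) in Tet2-/- blasts. The log2 fold change was -1.85 (SE 1.01, adjusted p = 0.684 by edgeR), and it was -0.76 without mouse 19. Mouse 19 also had the most RNA of 8 erythroid markers, which summed to 352 TPM there, mostly Hbb-bs and Hbb-bt, and to between 12.3 and 38.4 TPM in the other 5 mice. The part of these cells in the Meis1 reads was not tested. Overlapping genes had few reads. Gm37818 shares 1029 exonic bases with Meis1 and had up to 5 reads in a mouse, the antisense gene Gm16140 shares 896 and had 1 read in mouse 24, 2900018N21Rik had up to 2 reads, and 2610001A08Rik and Gm16141 had none. Meis2, its paralogue, had 1, 0 and 5 reads against 0, 2 and 0 reads (log2 fold change -1.75, SE 1.64, adjusted p = 0.827 by edgeR). Of its 8 reads in all, most were assigned to the retained-intron transcript Meis2-213 rather than to a protein-coding one.

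Pbx3, the PBX partner tied to HOXA9 in MLL leukaemia, had the highest mean level of the 9 genes over the 6 mice. It had 6, 59 and 86 reads in Tet2+/+ mice 19, 23 and 24. In Tet2-/- mice 5, 7 and 8 it had 70, 19 and 94 reads. The groups overlapped over nearly their whole range, at 0.359, 3.16 and 6.06 CPM against 2.21, 1.22 and 5.10 CPM. The means were 3.19 ± 2.85 CPM (SD, n = 3) in Tet2+/+ and 2.85 ± 2.02 CPM (SD, n = 3) in Tet2-/- blasts, and the log2 fold change was -0.16 (SE 0.93, adjusted p = 0.982 by edgeR). Its sign turned when mouse 24 (0.69) or mouse 7 (0.18) was left out. The antisense gene C79798 inside its span had 1 read.

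A pair of long protein-coding transcripts carried most of the Pbx3 reads. By TPM, the 9-exon Pbx3-201 made up 100%, 21.8% and 59.2% of Pbx3 in Tet2+/+ mice 19, 23 and 24 and 61.5%, 93.95% and 45.6% in Tet2-/- mice 5, 7 and 8. The 8-exon Pbx3-202 made up 0%, 28.3% and 39.5% in the former and 33.5%, 0% and 43.9% in the latter. It was missing from the libraries of mice 19 and 7, which had the fewest Pbx3 reads of their genotype. The mean share of Pbx3-201 was 60.3% ± 39.1 in Tet2+/+ and 67.0% ± 24.7 in Tet2-/- blasts (SD, n = 3; exact two-sided permutation p = 0.9), and that of Pbx3-202 was 22.6% ± 20.4 and 25.8% ± 22.9 (SD, n = 3; exact two-sided permutation p = 0.8). Neither difference kept its sign when mice were left out in turn. A short transcript marked for nonsense-mediated decay, Pbx3-209, took 49.9% of TPM in mouse 23 on 8.81 estimated reads, and 0% elsewhere.

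Several other PBX and TALE genes were present at higher levels than the set. Of the 9 genes of this list (TALE homeobox genes and a PBX-binding protein), edgeR called 0, while 2 were lower at an unadjusted p under 0.05 (Pbx4 and Tgif2, against 5.12% of genes tested) and DESeq2 called 0. The median log2 fold change was -0.02, and with 1 mouse left out it ran from -0.46 (without mouse 5) to 0.24 (without mouse 19). Pbx2, a broadly expressed PBX factor, had 31.9, 35.9 and 42.8 TPM in Tet2+/+ mice 19, 23 and 24 and 37.6, 61.7 and 33.9 TPM in Tet2-/- mice 5, 7 and 8. It was above Pbx3 in each mouse, and the groups overlapped (log2 fold change 0.27, SE 0.24, adjusted p = 0.821 by edgeR). Pbx4 had 3.89 to 7.04 CPM in Tet2+/+ and 2.17 to 2.64 CPM in Tet2-/- mice, the only member of this list without overlap in CPM, in a background of 7.94% of tested genes with non-overlapping lower values (log2 fold change -1.21, SE 0.35, adjusted p = 0.493 by edgeR). By TPM it overlapped, as Tet2+/+ mouse 19 (2.96 TPM) lay below Tet2-/- mice 7 and 8 (3.51 and 4.91 TPM). Pknox1, which like MEIS binds PBX, had between 9.19 and 24.5 TPM, and Pbxip1, a protein that keeps PBX from DNA, between 14.7 and 44.5 TPM. Neither passed the test (log2 fold changes -0.02, SE 0.39, and 0.53, SE 0.38).

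Most genes of the machinery that acts on HOX clusters were expressed in both genotypes, though Mllt3, Pcgf2 and Cbx2 had means over the 6 mice of 0.970, 0.713 and 0.405 TPM and the CDX genes had no read. The list of MLL complex genes and other HOX activators covers the H3K4 methyltransferase MLL1 (Kmt2a), its core subunits and fusion partners, and the CDX factors. Of 18 genes, 15 were tested and edgeR called 0, with 2 higher at an unadjusted p under 0.05 (Dpy30 and Men1, against 3% of genes tested) and 0 called by DESeq2. The median log2 fold change was 0.04, which scaling by library size alone turned to -0.13 as it moved the median of genes tested to -0.17. Kmt2a itself had 2.91, 3.74 and 3.79 TPM in Tet2+/+ and 2.18, 3.23 and 2.61 TPM in Tet2-/- mice. Of the 15, 3 (Wdr5, Rbbp5 and Mllt1) were higher in Tet2-/- mice without overlap in CPM, against 6.41% of genes tested. They were higher by 0.37 (SE 0.17), 0.20 (SE 0.14) and 0.35 (SE 0.17) on the log2 scale, with adjusted p of 0.632, 0.762 and 0.654 by edgeR. By TPM, each of the 3 overlapped between genotypes. Mllt10, Kat7 and Dpy30 had the highest mean TPM of the list (46.4, 33.3 and 31.8 TPM). The upstream HOX activators Cdx1, Cdx2 and Cdx4 had no read in any mouse.

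Polycomb genes, whose products keep HOX clusters silent, were tested in full. Of 14 genes, edgeR called 0, 1 was lower at an unadjusted p under 0.05 (Bmi1, against 5.12% of genes tested), and DESeq2 called 0. The median log2 fold change was 0.06, and it was -0.22 with length-scaled counts by either tool. Eed, Ezh2 and Suz12, the core of Polycomb repressive complex 2, were the most abundant of the list at means of 73.5, 64.9 and 50.1 TPM. Without overlap in CPM, 1 gene was higher and 1 lower, against 6.41% and 7.94% of genes tested. Eed was the higher one, at 45.6 to 55.2 CPM in Tet2+/+ and 59.4 to 64.0 CPM in Tet2-/- mice (log2 fold change 0.25, SE 0.15, adjusted p = 0.719 by edgeR). By TPM it overlapped, at 69.4 to 78.4 TPM in Tet2+/+ and 68.8 to 81.1 TPM in Tet2-/- mice. Bmi1, a subunit of complex 1, was the lower one, at 46.4 to 59.2 CPM in Tet2+/+ and 22.7 to 41.5 CPM in Tet2-/- mice (log2 fold change -0.65, SE 0.26, adjusted p = 0.604 by edgeR). By TPM it overlapped, as Tet2+/+ mouse 19 (16.6 TPM) lay below Tet2-/- mouse 8 (17.4 TPM).

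A list of 23 genes known to be bound or activated by HOXA9 and MEIS1 in leukaemia was read in the same fit. Of these, edgeR called 1 lower (Sox4) and 0 higher, against 0.0451% and 0% of genes tested. At an unadjusted p under 0.05 by edgeR, 7 were lower and 0 higher (5.12% and 3% of genes tested). DESeq2 called 2 lower, Sox4 and Msi2 (1.47% of genes tested). The median log2 fold change was -0.52 beside 0.0016 for genes tested (-0.30 without mouse 19 and -0.31 with length-scaled counts), with 16 negative and 7 positive. Of the 23, 5 were lower without overlap (Sox4, Cd34, Msi2, Myb and Ccl4), against 7.94% of genes tested. Sox4, a progenitor transcription factor, had 60.0, 87.1 and 69.5 CPM in Tet2+/+ mice 19, 23 and 24 and 15.2, 13.9 and 10.2 CPM in Tet2-/- mice 5, 7 and 8. The gap between groups was wider than the spread within either (log2 fold change -2.46, SE 0.24, adjusted p = 0.0348 by edgeR). The adjusted p was 0.0510 with length-scaled counts and 0.0667 to 0.197 when any 1 mouse was left out. Myb, a master factor of progenitors, was lower by a log2 fold change of -0.64 (SE 0.18, adjusted p = 0.487 by edgeR), and Msi2, an RNA-binding protein of stem cells, by -1.28 (SE 0.30, adjusted p = 0.324 by edgeR and 0.00796 by DESeq2). Cd34, which is also 1 of the 9 stem and progenitor markers, was at 170 to 310 CPM in Tet2+/+ and 32.2 to 131 CPM in Tet2-/- mice (log2 fold change -1.41, SE 0.50, adjusted p = 0.583 by edgeR). The chemokine gene Ccl4 was lower by -1.26 (SE 0.39, adjusted p = 0.525 by edgeR). Id2, Myb and Lmo2 had the highest mean TPM of the list. Hoxa9 and Meis1 themselves were near 0 in both genotypes. The summed levels of the stem and progenitor, basophil and mast cell, and megakaryocyte markers were lower without overlap in the same Tet2-/- mice. As given above, these gaps rested mostly on Cd34, Cpa3 and Itga2b. The part of these cell types in the values of this list was not tested.

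**Figure D4:**
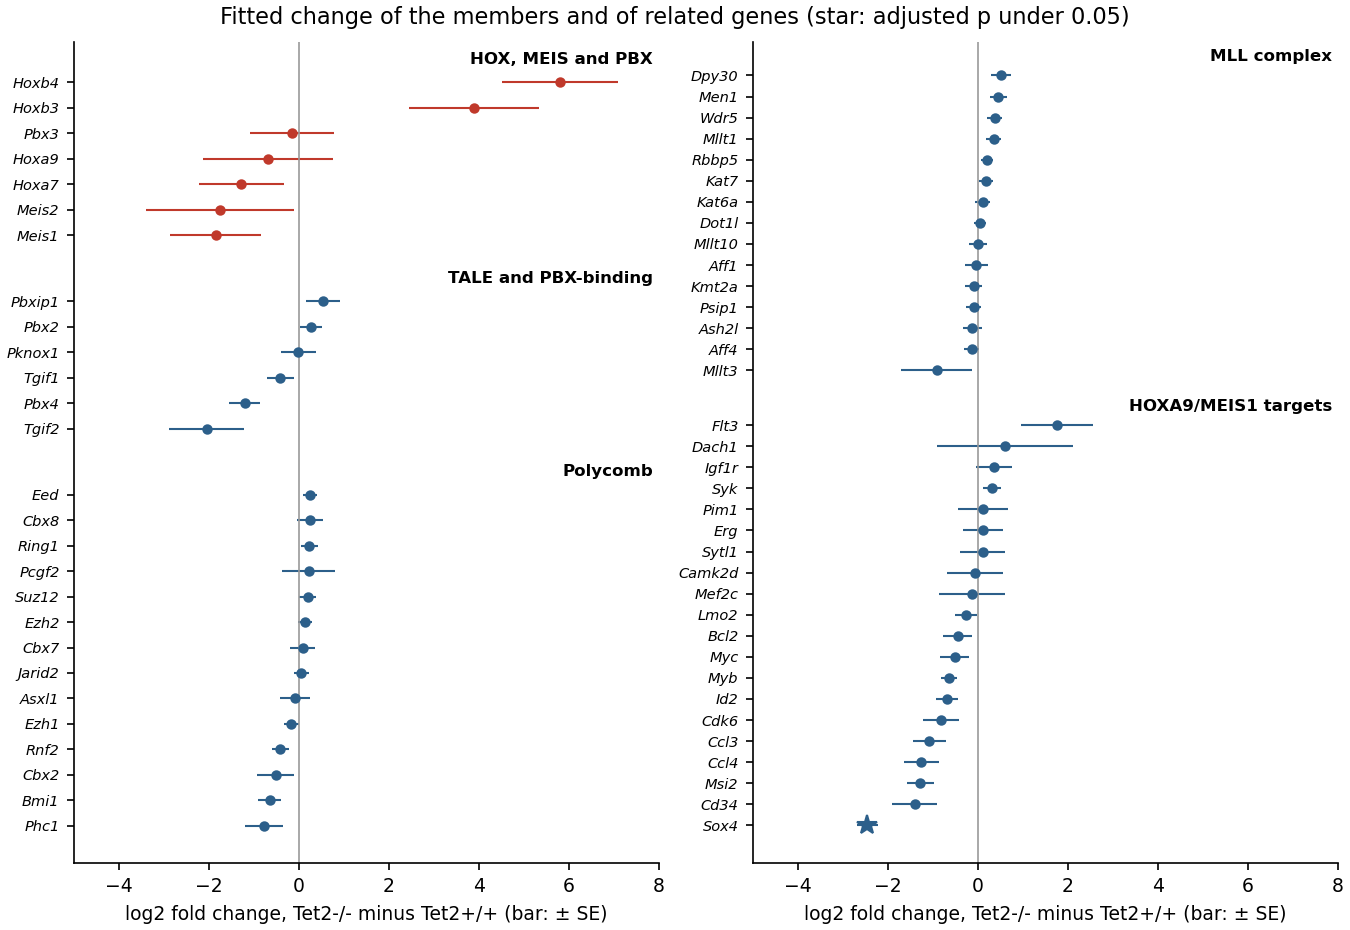
Fitted log2 fold change (Tet2-/- minus Tet2+/+, bars ± SE, n = 3 mice per genotype) of the 7 tested HOX, MEIS and PBX genes (red) and of list genes averaging 1 CPM or more (blue, 1 gene not drawn). Hoxb4 (5.80) and Hoxb3 (3.89) lie far to the right with wide bars, the MLL complex and Polycomb genes lie between -0.92 (Mllt3) and 0.51 (Dpy30), and the star marks Sox4 (-2.46), the gene drawn that passed an adjusted p of 0.05.

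Genes whose profile over the 6 mice was most like that of Hoxb4 were sought by the root mean square difference of log2 CPM centred on each gene's mean. Over the 13839 genes that averaged 1 CPM or more, the nearest were Gm14434 (0.949), Neurl1a (1.01) and Rpl34-ps1 (1.03), and among the tested genes of the set it was Hoxb3 (1.197). Neurl1a had 0.1196, 0.321 and 0.141 CPM in Tet2+/+ mice and 4.08, 0.386 and 7.81 CPM in Tet2-/- mice 5, 7 and 8. As for Hoxb4, mice 5 and 8 were high and mouse 7 was close to the Tet2+/+ mice, a likeness that the search selects for. For Rpl34-ps1, mouse 7 (113 CPM) lay far above the Tet2+/+ mice (7.675 to 17.03 CPM). Rpl34-ps1 is a pseudogene of a ribosomal protein gene, so its reads may be shared with copies. For Pbx3, the nearest were Gm14295 (0.46), Gm38279 (0.51) and Gm14305 (0.53), and in the set Hoxa9 (1.17).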

How the data were processed

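RNA-seq of AML blasts from 6 mice was used. Per the labels and methods, the authors made TruSeq libraries, which do not mark strand, and quantified them with Salmon 0.12.0 on Ensembl transcripts of GRCm38. The estimated counts were deposited as Salmon gave them, without normalization, and the deposited TPM are Salmon's own, scaled within each library. Estimated counts were summed by gene (GENCODE M21) and rounded. The 112 transcripts without a gene (0.0307% to 0.0416% of reads) were left out.

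Genes with normalised counts summing to at least 10 were tested with edgeR 4.0.16 (R 4.3.3, TMM, quasi-likelihood test, no covariate, Benjamini-Hochberg threshold 0.05). The SE is the log2 fold change over the root of F. The study used DESeq2 on length-scaled counts, run here as an alternative with DESeq2 1.42.0. In simulated counts of these 22170 genes, edgeR recovered 44.5% and DESeq2 75.5% of 200 genes with a log2 change of 2, with 6 and 79 false calls. The 200 were drawn from genes averaging at least 1 CPM, which only Hoxb4 and Pbx3 do among the 9 genes. These rates therefore do not hold for the other genes of the set. Shares and ratios were compared by exact permutation, with Python 3.11.15, scipy 1.17.1 and matplotlib 3.10.9.

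The 9 genes and the lists were chosen with earlier results of these data known. List genes were named if called, if among the 3 highest by TPM, or if genotypes did not overlap, at a mean of at least 1 CPM, and genes overlapping the 9 at any level. Kmt2a, Mllt3, Pcgf2, Cbx2, the Cdx genes and Hotairm1, and the other genes listed at an unadjusted p under 0.05, were named after their values were seen. A likeness search planned for Hoxa9 and Meis1 was not read, since their means are under 1 CPM, and it was run for Hoxb4 and Pbx3. Some list and marker genes are not reported here by name. Alternatives covered the tool, scaling, filter, pseudocount and leaving out each mouse.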

Additional observations from a re-analysis of the deposited data

How the results depend on the processing

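Of the 9 genes, 7 had at most 78 reads over the 6 mice, which limits the precision of their values, and for Hoxb4 and Pbx3 the SD within Tet2-/- mice was 3.76 and 2.02 CPM on means of 3.80 and 2.85 CPM. Genes called by edgeR numbered 10 lower and 0 higher. DESeq2 called 326 lower and 59 higher, length-scaled counts 5 lower, DESeq2 on these 322 lower and 64 higher, and no filter 62 lower and 4 higher, while filterByExpr and RLE factors each gave 1 higher. Leaving out 1 mouse gave between 0 and 7 lower, with 0 lower without mouse 5, 7 or 8, 1 without mouse 24 and 2 without mouse 23. Of the 9 genes, DESeq2 called 1 (Hoxb4) on either kind of counts, and edgeR called 0 under each alternative run. The HOXA to HOXB difference of -2.54 became -4.00 with a pseudocount of 0.01 TPM, -0.79 with 1 TPM and -4.21 from estimated counts as CPM, and was between -3.23 and -2.07 with 1 mouse left out. With 1 mouse left out, the difference ran from -0.72 to 0.29 for Meis1 over Hoxa9, -0.82 to 0.47 for Pbx3 over Hoxa9 and -0.56 to 0.11 for Meis1 over Meis2. The difference in share (percentage points, Tet2-/- minus Tet2+/+) was 6.68 for Pbx3-201 and between -12.6 and 26.5 with 1 mouse left out, and 3.19 for Pbx3-202 and between -8.12 and 16.1 with 1 mouse left out or -2.47 from estimated counts. The cause of these shifts was not tested.

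The sign of a log2 fold change turned as follows. With length-scaled counts, Hoxa9 became 0.31 by edgeR and 0.18 by DESeq2, and Mllt10 0.10 by both. Leaving out mouse 24 or 7 turned Pbx3, mouse 24, 5 or 8 Mllt10, mouse 7 Pbx2 and Pbxip1, and mouse 19, 5 or 8 Pknox1. Scaling by library size alone gave -0.04 for Ezh2. None of these values passed the test. With 1 mouse left out, the values ranged from -0.89 to 0.69 for Pbx3, -0.18 to 0.08 for Mllt10, -0.03 to 0.41 for Pbx2, -0.02 to 0.81 for Pbxip1 and -0.45 to 0.30 for Pknox1. They ranged from -2.45 to -0.20 for Hoxa9, which was not tested without mouse 24, and from -2.48 to -0.76 for Meis1, 4.64 to 6.79 for Hoxb4 (without mouse 5 and mouse 24) and 3.18 to 4.77 for Hoxb3 (without mouse 5 and mouse 19). Of 374 values of 28 named genes under 14 alternatives, 349 kept direction and side of the threshold, 7 lost a call, 3 gained one and 15 turned sign. No paired analysis was possible because the mouse numbers differ between the genotypes.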
